A study of Danio rerio with 40 samples.

Results

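The miR-183, miR-96 and miR-182 cluster of zebrafish (Danio rerio) was followed through the sperm small RNA libraries of the study. Its members were every miRNA of the deposited miRNA table that carries the name of one of these hairpins, whichever arm it comes from. These were 6 of the 346 miRNAs of the table: dre-miR-183-5p, dre-miR-182-5p and dre-miR-96-5p from the 5′ arms of the hairpins, and dre-miR-183-3p, dre-miR-182-3p and dre-miR-96-3p from the 3′ arms. The question was whether members that come from a shared transcript moved together from library to library and between the treatments.

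Adult wild-type males of the AB strain were kept for 2 weeks at high competition (High, 2 males with 1 female) or at low competition (Low, 1 male with 2 females), gave sperm, and then changed to the other treatment and gave sperm again. The Low-first line gave the groups High2 (10 libraries, High in the second period) and Low1 (10 libraries, Low in the first period), and the High-first line gave High1 (10 libraries) and Low2 (9 libraries). The libraries were therefore not all from different males, and p-values treat them as separate samples. Groups follow the prefix of each sample's title. For 22 of the 39 libraries the public record gives another treatment, which was used as an alternative grouping. All libraries of the series are from sperm, and 1 of the 40 samples, of Low2, was not analysed here because it has no column in the table used. In the study's own count table the name of number 10 of High1 heads 2 columns, so that the identity of this library is uncertain.

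In vertebrates the cluster is transcribed as one primary RNA, which is then cut into separate hairpins and mature miRNAs. It is best known from sensory organs, where it is abundant in photoreceptors and in the hair cells of the ear, and in mice it is also expressed in spermatocytes. In the RefSeq annotation of the zebrafish assembly GRCz12tu the hairpin genes lay in the order mir-183, mir-96 and mir-182 on the same chromosome, with no other annotated gene between them.

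The libraries held between 79435 and 8447142 miRNA reads, and 4 of the 39 held fewer than 500000 (numbers 2 and 3 of Low2, numbers 1 and 3 of Low1). Levels are given as normalised reads, the read count divided by the size factor of the library. The library numbers of the sample descriptions were used to place the libraries in 5 sequencing pools. Of these, pools 1 to 4 held 31 libraries and pool 5 held 8. Some of these numbers are used more than once, and another number was assumed for the second use. The study's text gives 8 samples to a pool without listing them. Pool membership is therefore inferred from the numbers and is an assumption throughout. The library numbers of the study's count table place 6 of the 39 libraries in another pool, with number 7 of High2 outside pool 5 and number 6 of Low1 inside it, and leave the 4 libraries described next in pool 5. In pool 5 the 4 libraries of the High-first line (numbers 7 and 8 of High1 and numbers 6 and 7 of Low2) stood apart from the rest for part of the cluster, so that results are given with and without them. In the miRNA marker lists for other cell types, every listed marker found in the table had reads in at least 1 library.

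The 3 5p arms made up nearly all of the cluster. dre-miR-183-5p had 118851 reads over the 39 libraries, dre-miR-182-5p had 65139 and dre-miR-96-5p had 4357, and each of them was found in all 39 libraries. The 3p arms were rare: dre-miR-183-3p had 22 reads in 10 libraries, dre-miR-182-3p had 33 reads in 15 and dre-miR-96-3p had 15 reads in 11. Summed over the 39 libraries, the 3p arm took 0.0185% of the reads of its hairpin for miR-183 (95% Wilson interval 0.0122 to 0.0280), 0.0506% for miR-182 (0.0361 to 0.0711) and 0.343% for miR-96 (0.208 to 0.565). These intervals cover counting error only, because copies made by PCR are counted as separate reads. The 4 High-first libraries of pool 5 gave 49936 of the 118873 reads of miR-183 and 32090 of the 65172 reads of miR-182. None of these were 3p reads, so that the summed shares of both hairpins describe neither the 4 libraries nor the rest. The shares of each set are given below. At a highest count of 7 reads in a library, the 3p arms were too rare for a comparison between single libraries.

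Among the miRNAs of its own library, dre-miR-183-5p ranked between 15 and 77 by reads, with a median rank of 64. dre-miR-182-5p ranked between 19 and 110 (median 80), and dre-miR-96-5p had a median rank of 145 and ranks down to 188. The 5p arms of miR-183 and miR-182 were thus among the better measured of the 219 miRNAs with a median of at least 10 reads. The median library had 1777 reads of dre-miR-183-5p, 730 of dre-miR-182-5p and 93 of dre-miR-96-5p, and the lowest counts were 38, 11 and 2 reads. The precision for dre-miR-96-5p was therefore the lowest of the 3.

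The highest levels of dre-miR-183-5p came from the 4 High-first libraries of pool 5. It had 18314 and 14217 normalised reads in numbers 7 and 8 of High1 and 30079 and 50150 in numbers 6 and 7 of Low2, against 549 to 2916 in the other 35 libraries. These 4 libraries did not overlap with the rest. As a share of all miRNA reads, dre-miR-183-5p took 0.564% to 1.66% in the 4 libraries and 0.0350% to 0.163% in the other 35.

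dre-miR-182-5p was high in the same 4 libraries. It had 8867 and 9015 normalised reads in numbers 7 and 8 of High1 and 22222 and 30932 in numbers 6 and 7 of Low2, against 165 to 1245 in the other 35 libraries, again without overlap. dre-miR-96-5p was not high there. It had 47.8 and 47.5 normalised reads in numbers 7 and 8 of High1 and 79.7 and 70.4 in numbers 6 and 7 of Low2, and the other 35 libraries ranged from 20.8 to 152, so that the 4 libraries lay inside the range of the rest. No read of a 3p arm was counted in the 4 libraries. In the other 35 libraries dre-miR-183-3p had 22 reads, dre-miR-182-3p 33 and dre-miR-96-3p 15, which is too few for a comparison with the 4.

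**Figure D1:**
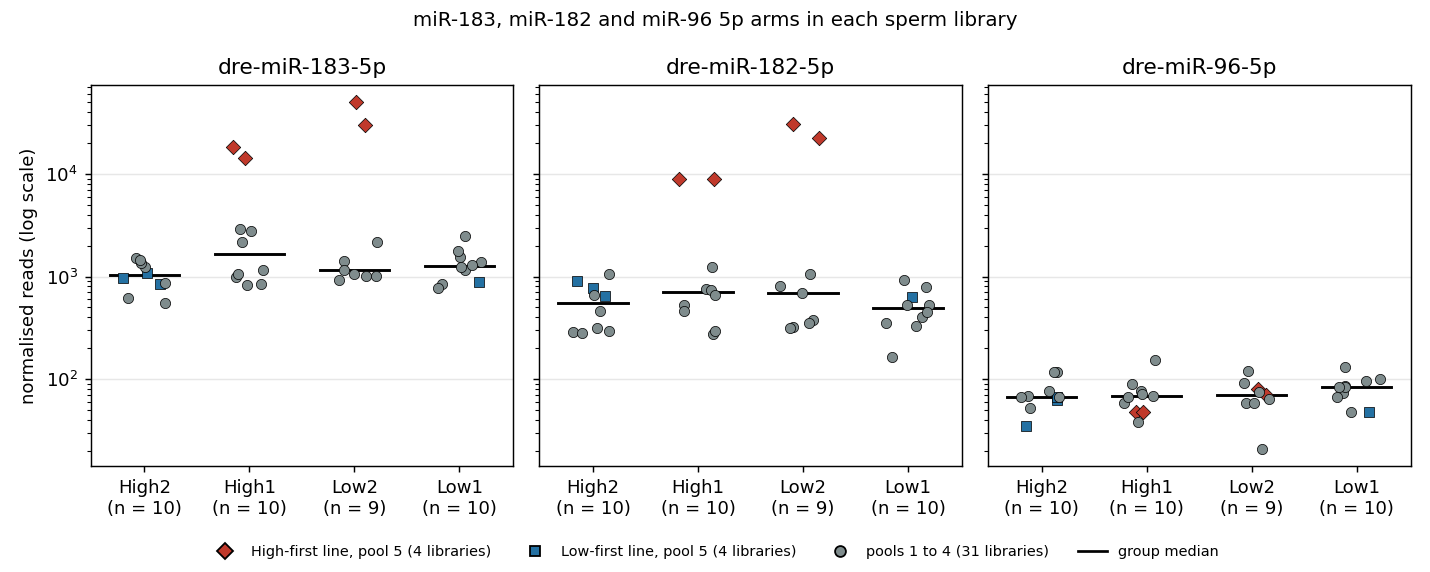
Normalised reads (log scale) of the 5p arms of miR-183, miR-182 and miR-96 in each sperm library, by group, with the group median as a line; marks tell the High-first and Low-first libraries of pool 5 from those of pools 1 to 4. The 4 High-first libraries of pool 5 lie between 14217 and 50150 for miR-183-5p and between 8867 and 30932 for miR-182-5p, above all other libraries, and inside the range of the others for miR-96-5p.

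Neither the pool nor the line was high throughout. The 4 Low-first libraries of pool 5 had 849 to 1091 normalised reads of dre-miR-183-5p and 625 to 895 of dre-miR-182-5p, inside the range of pools 1 to 4. Number 6 of High1, placed in pool 4, had 827 normalised reads of dre-miR-183-5p, and number 8 of Low2, placed in pool 1, had 1159. In contrast, number 6 of Low2 and number 8 of High1 were high. The labels do not state whether a number within a line marks one male. The 4 libraries are all that the High-first line has in this pool, so that the parts of line, male and pool cannot be told apart.

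Other miRNAs also stood apart in the 4 libraries. Of the 346 miRNAs, 16 (4.62%) had all 4 libraries above the other 35 and 2 (0.578%) had all 4 below, whereas on the CPM scale (reads scaled to the miRNA total of the library), an alternative chosen after seeing the data, 10 (2.89%) had all 4 above. Of the 6 members, 2 were among the 16 and also among the 10, dre-miR-182-5p and dre-miR-183-5p. Ranked by the difference of medians on the log2 scale, dre-miR-182-5p came in place 2 (4.74) and dre-miR-183-5p in place 3 (4.35), behind dre-miR-30e-3p (5.09), a miRNA picked out once the values were known. dre-miR-96-5p came in place 229 (-0.23).

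As a summed share of miRNA reads, no marker list of another cell type lay above the other libraries in the 4. The epithelial list held 14 of the table's miRNAs of the miR-200 family, miR-203 and miR-205, not all of them, and was led by dre-miR-203b-3p. It summed to 0.948% to 1.48% of miRNA reads in the 4 libraries and 1.02% to 8.99% in the other 35. The neural list (miR-9, miR-124 and miR-7a, 9 miRNAs, led by dre-miR-9-5p), of interest here because the cluster is known from sensory cells, summed to 0.469% to 0.711% in the 4 libraries and 0.577% to 2.03% in the others. In all 7 lists the ranges of the 4 libraries and of the rest overlapped. The liver miRNA dre-miR-122 took 0.0527% to 0.117% in the 4 libraries and 0.0969% to 0.440% in the others, and the gonad list (miR-202, both arms, led by dre-miR-202-5p) took 0.0345% to 0.0567% in the 4 and 0.0352% to 0.786% in the others. The muscle list (6 miRNAs, led by dre-miR-206-3p) took 0.0169% to 0.0396% in the 4 libraries and 0.00755% to 0.143% in the others, and the blood list (8 miRNAs, led by dre-miR-144-5p) took 0.0168% to 0.0255% in the 4 and 0.0132% to 0.102% in the others. For germ cells (3 miRNAs of the miR-34 and miR-449 family, led by dre-miR-34c-5p) the sums were 0.0128% to 0.0284% in the 4 libraries and 0.0105% to 0.0753% in the others. A sum mostly follows its most abundant miRNAs, and single members of a list went both ways. By the difference of medians on the log2 scale, members reached 2.67 in the epithelial, 2.00 in the neural, 1.47 in the muscle and 0.998 in the blood list. In the same order, the leading miRNAs of these lists were at -0.60, -0.61, -0.44 and 0.49. The direction can depend on the scale. For dre-miR-144-5p, at 0.49 on the log2 scale, the median share of miRNA reads was 0.0198% in the 4 libraries and 0.0225% in the others. The part of these markers in the levels of the cluster was not tested. In bulk sperm, a change in the number of cells of a type and a change in the RNA of each cell cannot be told apart.

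Over the 31 libraries of pools 1 to 4, dre-miR-183-5p and dre-miR-182-5p rose and fell together. Pearson's r on the log2 values was 0.64 (permutation p = 8e-05, adjusted p = 0.0153), with the Benjamini-Hochberg adjustment over the 654 correlations of the 3 arms with the other miRNAs of at least 10 reads in the median library. Spearman's rho was 0.54 (permutation p = 0.00177, adjusted p = 0.0941), which did not pass the threshold of 0.05. The relation rests in part on the libraries with the highest dre-miR-183-5p. Without numbers 2 and 5 of High1, the libraries farthest from the median of dre-miR-183-5p with 2800 and 2916 normalised reads, r was 0.55 (permutation p = 0.0018, adjusted p = 0.0892) and no longer passed. Leaving out single libraries gave r between 0.58 and 0.67. Over 35 libraries, without only the 4 High-first libraries of pool 5, r was 0.53 (permutation p = 0.0011, adjusted p = 0.0240). There rho was 0.43 (permutation p = 0.0100, adjusted p = 0.119). With the pools of the study's count table, r was 0.56 (adjusted permutation p = 0.0480) and rho was 0.45 (adjusted permutation p = 0.191). With 1 value for each line and number (18 values), an alternative chosen after seeing the data, r was 0.61 (permutation p = 0.00719, adjusted p = 0.133).

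For dre-miR-96-5p no such relation was detected. Its r with dre-miR-183-5p was 0.04 (rho 0.12; permutation p = 0.817 and 0.511, adjusted p = 0.904 and 0.760), and its r with dre-miR-182-5p was -0.05 (rho -0.12; permutation p = 0.801 and 0.513, adjusted p = 0.898 and 0.760). Without the 2 libraries farthest from the median, r was 0.22 for the first pair (adjusted permutation p = 0.632) and 0.08 for the second (adjusted permutation p = 0.895). The difference between the correlations was not itself tested.

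Within single pools, the r of dre-miR-183-5p with dre-miR-182-5p was positive throughout, at 0.67, 0.40, 0.73 and 0.62 in pools 1 to 4 (8, 7, 8 and 8 libraries). Within single groups of these pools, the r of this pair was 0.41 for the 7 High2 libraries, 0.84 for the 8 High1 libraries, 0.47 for the 7 Low2 libraries and 0.72 for the 9 Low1 libraries. For dre-miR-183-5p with dre-miR-96-5p the sign changed between pools, at -0.81, 0.20, 0.85 and 0.20 in pools 1 to 4. For dre-miR-182-5p with dre-miR-96-5p it was -0.55, -0.62, 0.61 and 0.69 in pools 1 to 4. With deviations from the pool means, r was 0.61 for miR-183-5p with miR-182-5p (adjusted permutation p = 0.0314), 0.19 for miR-183-5p with miR-96-5p (adjusted permutation p = 0.593) and 0.18 for miR-182-5p with miR-96-5p (adjusted permutation p = 0.612). In pool 5 the libraries fall into 2 separate clusters of 4, so that no r is read from this pool or from all 39 libraries together.

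**Figure D2:**
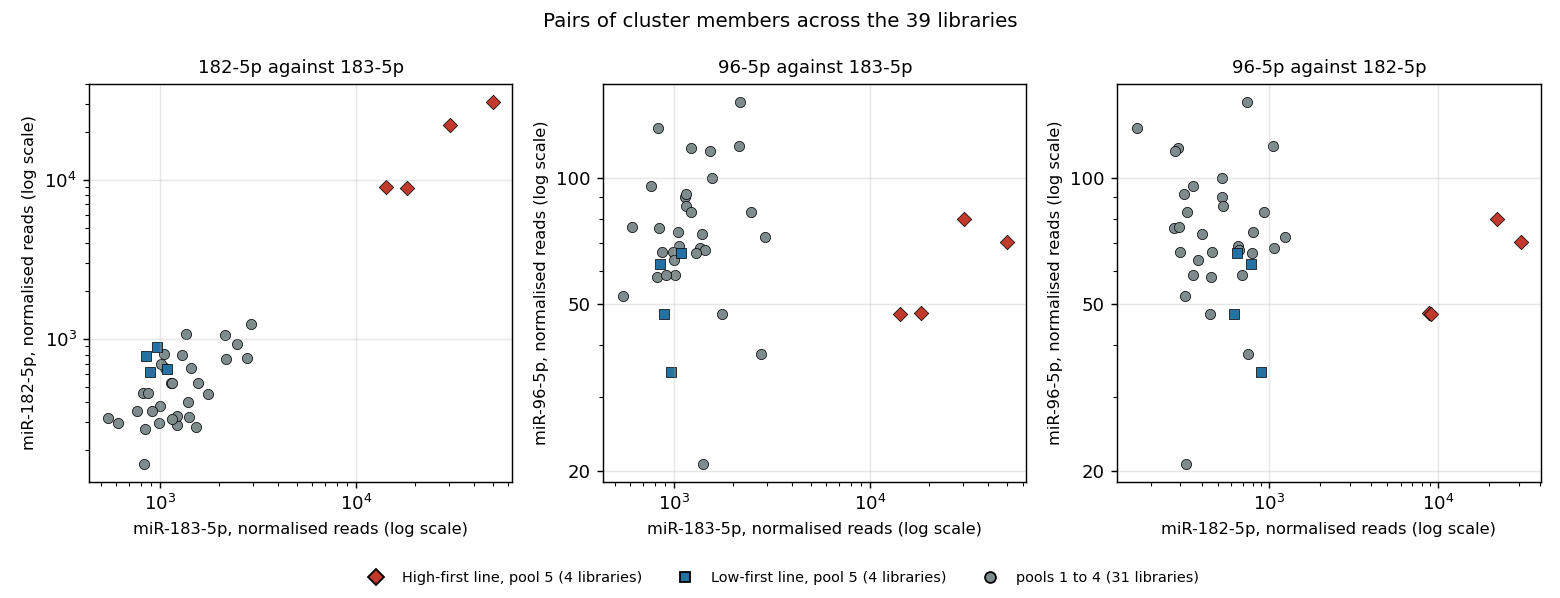
Normalised reads (log scales) of each pair of 5p arms, with 1 point per library, marked by line and pool. Among the 31 libraries of pools 1 to 4, miR-182-5p rises with miR-183-5p (r = 0.64). Spearman's rho was 0.54 and did not pass after adjustment (permutation test, adjusted p = 0.0941). In the 4 High-first libraries of pool 5 both arms are high. miR-96-5p lies between 20.8 and 152 normalised reads over all 39 libraries and is not high in these 4.

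The ratios between the arms within a library remove the scaling of the library. Over pools 1 to 4, the log2 ratio of dre-miR-182-5p to dre-miR-183-5p reads had an SD of 0.57, against 0.14 that counting error alone would give. For dre-miR-96-5p the SD of the log2 ratio was 0.80 to dre-miR-183-5p (0.30 from counting error) and 0.92 to dre-miR-182-5p (0.32 from counting error). The log2 levels themselves had SDs of 0.59 for dre-miR-183-5p, 0.71 for dre-miR-182-5p and 0.55 for dre-miR-96-5p.

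Of the reads of the 3 5p arms, dre-miR-182-5p took 32.6% to 42.4% in the 4 High-first libraries of pool 5 and 14.5% to 47.2% in the other 35 libraries, so that the balance between miR-183-5p and miR-182-5p in the 4 libraries lay inside the range of the rest. In the 4 Low-first libraries of pool 5 it took 36.0% to 47.2%, and in pools 1 to 4 it took 14.5% to 42.8%. The share of dre-miR-96-5p differed. It was 0.175% (95% Wilson interval 0.126 to 0.245) and 0.204% (0.122 to 0.342) in numbers 7 and 8 of High1 and 0.152% (0.119 to 0.194) and 0.0867% (0.0496 to 0.152) in numbers 6 and 7 of Low2, against 1.06% to 11.7% in the other 35 libraries, without overlap. In reads, dre-miR-183-5p outnumbered dre-miR-96-5p 299 to 712 times in the 4 libraries and 6.33 to 73.6 times in the others. The same ratio to dre-miR-182-5p was 1.35 to 2.07 in the 4 libraries and 1.08 to 5.48 in the others.

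By group, the share of dre-miR-96-5p had a median of 4.23% in High2 (1.82% to 7.77%), 4.09% in High1 (0.175% to 6.37%), 3.58% in Low2 (0.0867% to 5.86%) and 4.24% in Low1 (2.10% to 11.7%). The share of dre-miR-182-5p had a median of 33.7% for High2, 29.6% for High1, 31.7% for Low2 and 25.3% for Low1. All 4 groups overlapped in both shares.

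**Figure D3:**
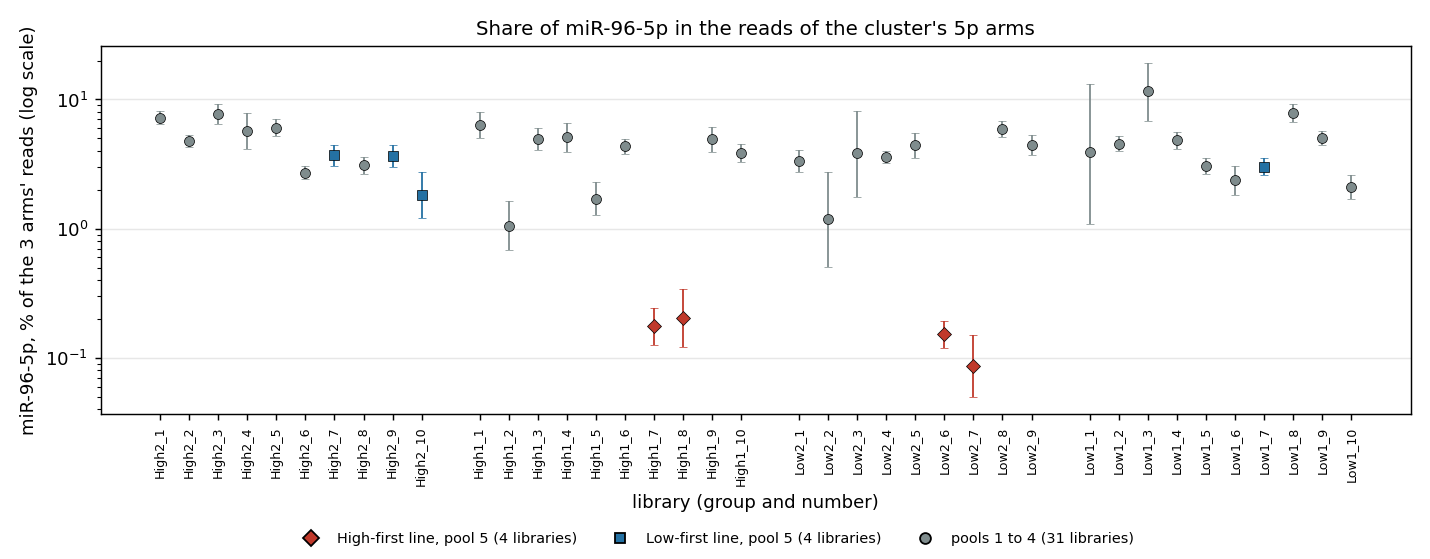
Share of miR-96-5p in the reads of the 3 5p arms (log scale) in each library, with 95% Wilson intervals, ordered by group and number. The 4 High-first libraries of pool 5 lie between 0.0867% and 0.204%, below the 1.06% to 11.7% of the other 35.

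Among the other miRNAs with a median of at least 10 reads, the one most like dre-miR-183-5p over pools 1 to 4 was dre-miR-182-5p. Next came dre-miR-27b-5p (r = 0.53, permutation p = 0.00213) and dre-miR-181a-5-3p (r = 0.53, permutation p = 0.00207), both with an adjusted p just under 0.05, whereas dre-miR-96-5p held place 96. The miRNA most like dre-miR-182-5p was dre-miR-25-3p (r = 0.68, adjusted permutation p = 0.0131), followed by dre-miR-183-5p and dre-miR-155 (r = 0.58, adjusted permutation p = 0.0315), a miRNA known from immune cells. dre-miR-96-5p held place 139 there. The median r over all these miRNAs was -0.03 for dre-miR-183-5p and 0.04 for dre-miR-182-5p.

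The miRNAs most like dre-miR-96-5p lay outside the cluster. They were dre-miR-34c-5p (r = 0.64, adjusted permutation p = 0.0153), known in mice from late spermatogenic cells, dre-miR-26b (r = 0.63, adjusted permutation p = 0.0229) and dre-let-7j (r = 0.57, adjusted permutation p = 0.0344). dre-miR-183-5p held place 97 and dre-miR-182-5p place 120. dre-miR-34c-5p itself took 0.00961% to 0.0723% of miRNA reads in the 35 libraries outside the 4 High-first ones of pool 5. Over the 654 correlations, 14 rose and 14 fell at an adjusted p under 0.05. Of the positive ones, 3 were with dre-miR-183-5p, 7 with dre-miR-182-5p and 4 with dre-miR-96-5p. A pair of members enters the 654 under each of its arms. The correlation of dre-miR-183-5p with dre-miR-182-5p is therefore counted both in the 3 and in the 7.

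**Figure D4:**
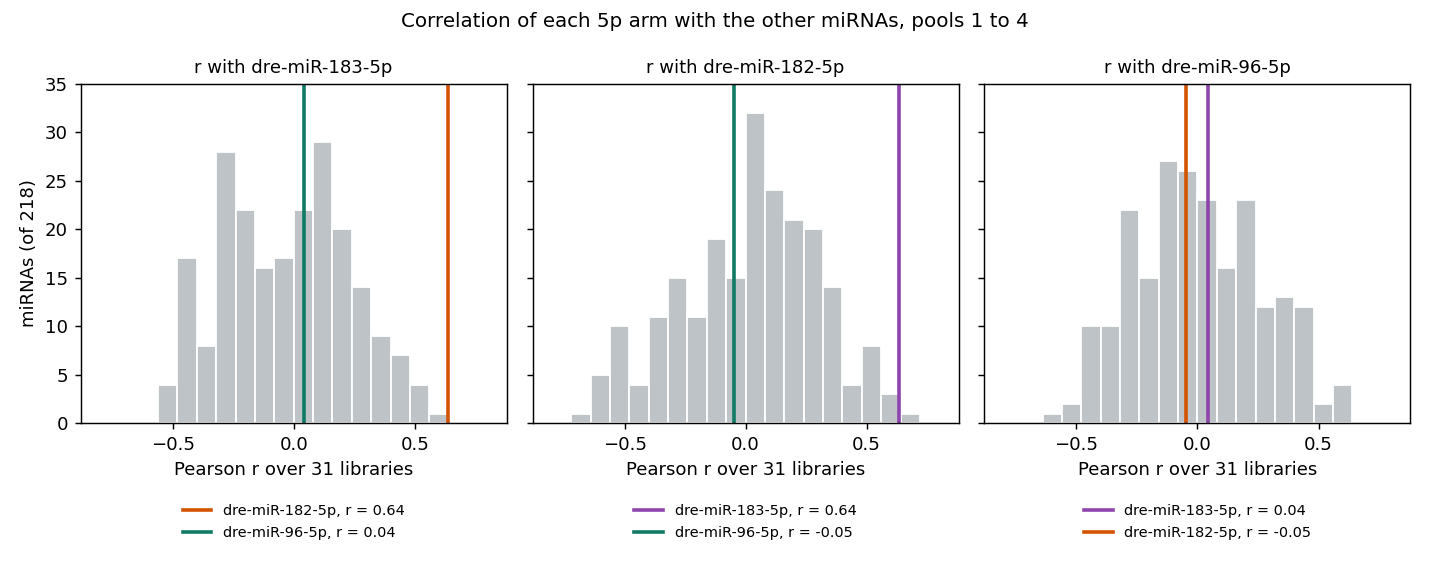
Pearson r of each 5p arm with the other miRNAs of at least 10 reads in the median library, over the 31 libraries of pools 1 to 4; bars count miRNAs and vertical lines mark the other members. The lines of miR-183-5p and miR-182-5p lie at the upper end of each other's distribution (r = 0.64), and those with miR-96-5p lie near its middle (0.04 and -0.05).

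Between the treatments, no member passed the test in any comparison. limma called 0 of 346 miRNAs (0%) at an adjusted p under 0.05 in each of the 6 comparisons, and limma-voom on the recovered reads also called 0 in each. At an unadjusted p under 0.05, limma gave 20 of 346 miRNAs (5.78%) in High2 against Low1, 14 (4.05%) in High2 against Low2, 11 (3.18%) in High1 against Low1, 3 (0.867%) in High1 against Low2, 22 (6.36%) in High2 against High1 and 22 (6.36%) in Low2 against Low1. In the same order, limma-voom gave 23 (6.65%), 14 (4.05%), 12 (3.47%), 0 (0%), 31 (8.96%) and 5 (1.45%). Of the 6 members, limma gave 1 in High2 against Low2, dre-miR-183-5p, and 1 in High1 against Low1, dre-miR-183-3p with 0 reads in High1 and 13 reads in 4 libraries of Low1, and none in the other comparisons. limma-voom gave 1 of the 6 members in Low2 against Low1 and none in the other comparisons.

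In the second period, dre-miR-183-5p had a lowest, median and highest level of 549, 1029 and 1528 normalised reads in High2, against 916, 1159 and 50150 in Low2. The means were 1051 ± 340 in High2 (SD, n = 10) and 9883 ± 17863 in Low2 (SD, n = 9). The 3 highest libraries of Low2 lay above all of High2, and 2 of them were the High-first libraries of pool 5. At the low end, numbers 2, 3, 4 and 7 of High2 (549 to 874) lay below all of Low2. The remaining libraries overlapped. The log2 difference, High2 over Low2, was -1.37 (SE 0.62, limma unadjusted p = 0.0318, adjusted p = 0.983). Without the 4 High-first libraries of pool 5 it was -0.26 (SE 0.27, limma adjusted p = 1), and with pool as a covariate it was -1.54 (limma adjusted p = 0.298). Grouped by the treatment of the public record, the direction turned, to 1.07 (limma adjusted p = 0.945).

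dre-miR-182-5p had 279, 555 and 1070 normalised reads in High2 and 313, 694 and 30932 in Low2. The log2 difference was -1.25 (SE 0.71, limma adjusted p = 0.983), and 0.01 (SE 0.35, limma adjusted p = 1) without the 4 libraries and 0.62 (limma adjusted p = 0.945) with the treatment of the public record. dre-miR-96-5p had 34.4, 67.0 and 118 normalised reads in High2 and 20.8, 70.4 and 120 in Low2, and its log2 difference was 0.07 (SE 0.26, limma adjusted p = 0.988). It overlapped over nearly the whole range of both groups. Beside dre-miR-183-5p, the study names 6 other miRNAs across its comparisons, and all of them, dre-miR-183-5p included, were chosen on these samples. All 6 were lower in High2 than in Low2, with a median log2 difference of -1.06 and a lowest limma adjusted p of 0.983. Without the 4 libraries 5 of the 6 were lower, with a median of -0.35. With the treatment of the public record all 6 were higher in High2 than in Low2, with a median log2 difference of 0.86 and a lowest limma adjusted p of 0.945. Over all 346 miRNAs 160 were lower in High2, and the median log2 difference was 0.01.

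In the first period, dre-miR-183-5p had 827, 1661 and 18314 normalised reads in High1 and 768, 1270 and 2477 in Low1. The log2 difference, High1 over Low1, was 0.86 (SE 0.60, limma adjusted p = 0.776), and 0.15 (SE 0.26, limma adjusted p = 0.969) without the 4 libraries. dre-miR-182-5p had 273, 700 and 9015 normalised reads in High1 and 165, 488 and 930 in Low1, a log2 difference of 1.06 (SE 0.69, limma adjusted p = 0.774) that became 0.26 (SE 0.33, limma adjusted p = 0.968) without the 4 libraries. For dre-miR-96-5p the lowest, median and highest levels were 38.0, 67.7 and 152 in High1 and 47.4, 82.9 and 132 in Low1, with a log2 difference of -0.21 (SE 0.26, limma adjusted p = 0.847). The groups overlapped for all 3 arms.

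The difference between the periods, High2 over Low2 minus High1 over Low1, was -2.23 on the log2 scale for dre-miR-183-5p (SE 0.86, limma unadjusted p = 0.0134, adjusted p = 0.511). For dre-miR-182-5p it was -2.31 (SE 0.99, limma unadjusted p = 0.0251, adjusted p = 0.511), and for dre-miR-96-5p it was 0.28 (SE 0.37, limma adjusted p = 0.832). Without the 4 libraries, an alternative added for this difference after seeing the data, it was -0.41 (SE 0.38, limma adjusted p = 0.991) for dre-miR-183-5p, -0.25 (SE 0.48, limma adjusted p = 0.991) for dre-miR-182-5p and 0.22 (SE 0.40, limma adjusted p = 0.991) for dre-miR-96-5p. With these groups, the difference equals High2 plus Low1 minus High1 plus Low2, which sets the Low-first line against the High-first line. A treatment effect that changes between the periods and a difference between the lines therefore cannot be told apart. The 4 libraries are all of the High-first line.

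In the Low-first line, High2 over Low1 gave -0.34 (SE 0.60) for dre-miR-183-5p, 0.13 (SE 0.69) for dre-miR-182-5p and -0.17 (SE 0.26) for dre-miR-96-5p on the log2 scale, with limma adjusted p of 0.979, 0.996 and 0.979. In the High-first line, High1 over Low2 gave -0.18 (SE 0.62), -0.32 (SE 0.71) and 0.03 (SE 0.26) in the same order, with limma adjusted p of 0.993, 0.993 and 0.995. Without the 4 libraries High1 over Low2 turned to 0.23 (SE 0.29) for dre-miR-183-5p and 0.14 (SE 0.36) for dre-miR-182-5p, and in High2 over Low1 the SE of dre-miR-183-5p became 0.25 at the same difference (limma adjusted p = 0.933). Each group of the High-first line holds 2 of the 4 high libraries.

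Between the lines, High2 over High1 gave -1.19 (SE 0.60, limma adjusted p = 0.714) for dre-miR-183-5p, -0.93 (SE 0.69, limma adjusted p = 0.83) for dre-miR-182-5p and 0.04 (SE 0.26, limma adjusted p = 0.967) for dre-miR-96-5p. Low2 over Low1 gave 1.04 (SE 0.62, limma adjusted p = 0.630), 1.38 (SE 0.71, limma adjusted p = 0.577) and -0.24 (SE 0.26, limma adjusted p = 0.791). Without the 4 libraries dre-miR-183-5p was at -0.49 (SE 0.26, limma adjusted p = 0.874) for High2 over High1 and at -0.08 (SE 0.27, limma adjusted p = 1) for Low2 over Low1, and dre-miR-182-5p was at -0.13 (SE 0.33) and 0.12 (SE 0.35). The comparisons share groups, and their fold changes are not independent of each other.

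**Figure D5:**
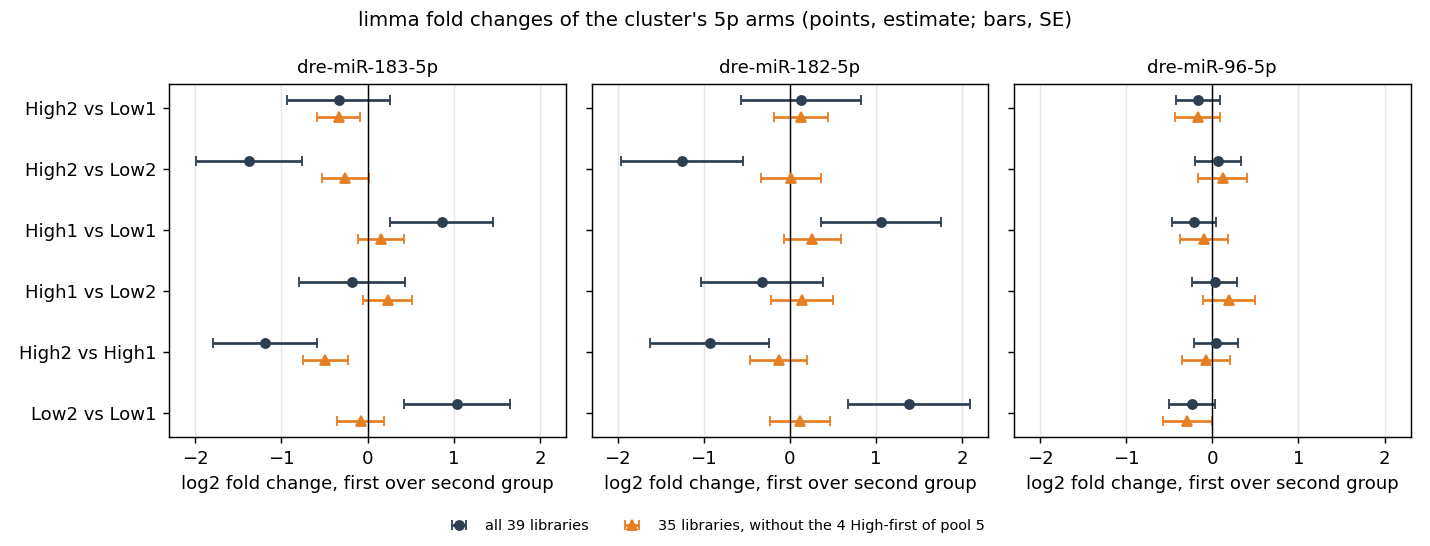
limma log2 fold changes (first over second group) of the 5p arms of miR-183, miR-182 and miR-96 in the 6 comparisons, with SEs as bars, for all 39 libraries and for the 35 without the High-first libraries of pool 5. For miR-183-5p in High2 against Low2 the estimate is -1.37 with all libraries and -0.26 without the 4, and for miR-96-5p the estimates lie between -0.24 and 0.07 with all libraries.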

How the data were processed

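Sperm small RNA was sequenced from individual males on an Illumina HiSeq2500. The authors aligned trimmed reads with PatMaN, without mismatches or gaps, to the mature zebrafish miRNAs of miRBase, collated counts with a Perl script and used DESeq2 with treatment as the sole factor. The deposited values are on a log2 scale, and their steps and lowest value of 2 fit log2 of the read count over a library size factor, plus 4. All 13494 values passed as whole read counts, at a tolerance of 0.05 reads for low counts. The tolerance grew with the count, so that high counts could not fail this check. A read that matches several miRNAs may have been counted for each, and 17 rows share all values with another row, none of them a member. Depth limits rare arms most.

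Tests used limma 3.58.1 in R 4.3.3 (lmFit, eBayes with trend, group as the only factor, all 4 groups in 1 fit, two-sided, Benjamini-Hochberg over 346 miRNAs, threshold 0.05). Correlations used the deposited log2 values of pools 1 to 4 and two-sided permutation tests with 100000 resamples, in Python 3.11.15 with numpy 2.4.6. The tests were also run on simulated normal values. For limma their spread was taken from the 35 libraries outside the 4 High-first ones of pool 5. For the correlations only unadjusted p was used. Outlying libraries and the adjustment over the 654 correlations were thus not covered by these runs. Named miRNAs were all members, for each 5p arm the 3 miRNAs with the highest r over pools 1 to 4, and the highest member of each marker list, beside 1 named once its values were known. The members, lists and alternatives were chosen with earlier results of these data known. Alternatives covered scaling, filters, weights, pools, depth, labels and libraries left out. The piRNA table was not used here.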

Additional observations from a re-analysis of the deposited data

Results flagged for a closer look

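The lowest and highest library of a group were set against their nearest neighbour in 24 checks. These covered the levels of the 3 5p arms and the log2 ratios between them in the 4 groups. By this rule 1 library stood far from the rest of its group, where chance alone gives about 1 in 20. Libraries that stand apart as a pair are not flagged by it, and High1 and Low2 each hold 2 of the High-first libraries of pool 5. The flagged library was number 2 of Low2 for dre-miR-96-5p, with a log2 level of 4.38 (20.8 normalised reads from 5 reads counted). The other 8 libraries lay at 5.87 to 6.90. The library held 404777 miRNA reads and was 1 of the 4 with fewer than 500000. The part of depth in this value was not tested.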

How the results depend on the processing

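The 3 5p arms gave 204 fold changes under other settings, and the 3p arms were not included. Of the 204, 0 had an adjusted p under 0.05 (the lowest was 0.298, limma with pool as a covariate), 179 kept their sign and 25 turned it. Some of these settings cannot change a log2 difference. They are limma without the trend, without the lowest 25% of miRNAs and with only the 2 groups compared. The same holds where the libraries left out belong to neither group. The 179 therefore include signs that were fixed in advance. The number of calls was 0 in 66 of 68 alternatives, and 10 and 9 in High2 against High1 with libraries of at least 500000 reads and with only the 2 groups compared, none of them members. With the public treatment labels, miR-183-5p turned to 1.07 (High2 against Low1), 1.07 (High2 against Low2), 1.06 (High1 against Low2) and 0.0078 (High2 against High1), miR-182-5p to 0.62 (High2 against Low2) and 0.75 (High1 against Low2), and miR-96-5p to 0.12 (High2 against Low1), 0.011 (High1 against Low1), -0.019 (High1 against Low2) and 0.030 (Low2 against Low1). Without the 4 High-first libraries of pool 5, miR-183-5p turned to 0.23 (High1 against Low2) and -0.079 (Low2 against Low1), miR-182-5p to 0.012 (High2 against Low2) and 0.14 (High1 against Low2), and miR-96-5p to -0.071 (High2 against High1). With libraries of at least 500000 reads, miR-182-5p turned to -0.080 (High2 against Low1) and miR-96-5p to -0.12 (High2 against Low2), -0.16 (High1 against Low2) and 0.032 (Low2 against Low1). With pool as a covariate, miR-182-5p turned to -0.38 (High2 against Low1) and miR-96-5p to -0.0055 (High2 against Low2) and -0.041 (High2 against High1). miR-96-5p turned to 0.17 with limma-voom and 0.13 on log2 CPM (High2 against Low1), and to -0.034 with centred libraries (High2 against High1). On log2 CPM the median log2 difference of all miRNAs was 0.24 in High2 against Low1, against 0.04 on the deposited scale. The difference between the periods of miR-183-5p turned to 0.0048 with the public labels. The causes were not tested.

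The correlation of miR-183-5p with miR-182-5p passed the threshold in 8 of 10 alternatives by Pearson's r and in 2 of 10 by Spearman's rho, leaving out the 2 alternatives whose libraries form separate clusters (all libraries, and pool 5 alone). Pearson's r fell below the threshold without the 2 farthest libraries (0.55) and with 1 value for each line and number (0.61). The 24 alternatives of the pairs with miR-96-5p passed in 0 cases (lowest adjusted permutation p 0.519). With miR-183-5p the sign turned with 1 value for each line and number (-0.25), and with miR-182-5p on log2 CPM (0.15), with centred libraries (0.030), with pool means removed (0.18) and without the 2 farthest libraries (0.084). All 48 alternatives of the median ratios moved by less than 1 SD. Over all libraries r was -0.065 for the first of these pairs and in pool 5 alone 0.42 for the second, with the separate clusters noted above, and nothing is read from them. The 16 miRNAs high in the 4 libraries were 10 on the CPM scale.

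Deviations of same-numbered samples correlated between -0.37 and 0.27 in the Low-first line and between -0.36 and 0.80 in the High-first line. Differently numbered samples were not compared, so that these values cannot decide whether the numbers of the labels pair the samples. With the number as a replicate block the calls stayed at 0 in High2 against Low1 and in High1 against Low2, and miR-183-5p was at -0.34 (adjusted p = 0.811) and -0.06 (adjusted p = 1).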
